A study of Mus musculus with 45 samples.

Results

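The 10 genes Atf3, Atf4, Atf5, Ddit3, Chac1, Asns, Sesn2, Ppp1r15a, Ddit4 and Cebpb were followed in mouse hippocampal primary neurons, as genes of the integrated stress response and of stress-linked transcription. They were chosen by name, without a threshold on their values, and are 10 of the 54532 genes in the count table, of which 37048 had at least 1 read. RNA was sequenced from cultures of newborn C57BL/6N mice in 9 conditions, each with 5 libraries, 1 from each of 5 culture preparations numbered 1, 3, 6, 7 and 8. The control was untreated, and the other 8 conditions received bicuculline (Bic, 50 µM), a blocker of GABA type A receptors that induces action potential (AP) firing, for 0.5, 1 or 2 h in all. In the short protocol (SP), the sodium channel blocker tetrodotoxin (TTX, 1 µM), which stops AP firing, was present alone or together with the glutamate receptor agonist NMDA (30 µM) during the second 0.5 h of 1 h Bic. In the long protocol (LP), TTX, TTX/NMDA or TBOA (50 µM), a blocker of glutamate uptake that lets glutamate spill over from synapses, was present during the second 1 h of 2 h Bic. Bic stayed in the medium during every intervention. All cultures received cytosine arabinoside, which limits the growth of dividing cells. The treatment day is day in vitro 10 or 11 in the labels, and day 11 for RNA sequencing in the methods of the study. The comparison of TTX with Bic of the same length is called the passive effect, TTX/NMDA with TTX the active effect, TTX/NMDA with Bic the total effect, and TBOA with 2 h Bic the glutamate spillover effect.

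The integrated stress response begins when kinases that sense amino acid shortage, misfolded protein, viral RNA or haem shortage phosphorylate the translation factor eIF2. General protein synthesis then falls while the mRNA of the transcription factor ATF4 is translated, and ATF4 raises genes of amino acid supply and of stress adaptation. Much of the control of ATF4, ATF5 and CHOP is therefore on translation, which RNA levels do not show. Among the 10 genes, Atf3, Atf4, Atf5, Ddit3 (CHOP) and Cebpb encode basic leucine zipper transcription factors. Asns encodes asparagine synthetase, Chac1 an enzyme that degrades glutathione, and Sesn2 and Ddit4 inhibitors of the growth kinase complex mTORC1. Ppp1r15a encodes GADD34, the stress-induced subunit that directs a phosphatase to eIF2 and so ends the response. Atf3 and Cebpb are also known as genes that neuronal activity induces.

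Letters that match known binding sites of ATF and C/EBP proteins stood upstream of 4 of the 10 genes. The 250 bases before each RefSeq start were searched on both strands for a cAMP response element (TGACGTNA), the known site of CREB and ATF proteins, and for the core of a C/EBP-ATF response element (TGATGNAA), the known site of ATF4 with a C/EBP partner. The sequences around the matches of Atf3, Chac1 and Ppp1r15a are shown to place these elements, with the match in capitals and no overlap of the patterns. The sequences are from RefSeq (GRCm38.p6) and read 5′ to 3′ on the strand of the gene.
Atf3, chr1:191183416-191183463, minus strand, in an intron of a longer annotated Atf3 transcript, match starting 110 bases before the start: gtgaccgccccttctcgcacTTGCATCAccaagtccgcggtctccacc
Atf3, chr1:191183334-191183363, minus strand, within an exon of another annotated Atf3 transcript, match starting 10 bases before the start: cctggaagctattaatagcaTTACGTCAgc
Chac1, chr2:119351029-119351076, plus strand, between genes, match starting 193 bases before the start: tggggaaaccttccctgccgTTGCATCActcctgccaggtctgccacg
Ppp1r15a, chr7:45526269-45526300, minus strand, between genes, match starting 12 bases before the start: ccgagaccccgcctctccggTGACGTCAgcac
Atf3 and Chac1 held the same 8 bases of the C/EBP-ATF element, on the strand opposite to the gene, and Asns held TGATGAAA within an annotated exon, 23 bases before the RefSeq start. Ppp1r15a held the palindromic cAMP response element and Atf3 a variant of it. Atf4, Atf5, Ddit3, Sesn2, Ddit4 and Cebpb held neither pattern in this window. The search also covered 2 further patterns, TGANTCA (known as AP-1) and TATAAA (the TATA box). The first matched upstream of Ddit3 alone and the second upstream of no member, beside 6.75% and 12.4% of all upstream windows. All 10 members had an upstream sequence (Atf5 had 2 starts). Of 32851 RefSeq upstream windows of the same length, 3.45% held the C/EBP-ATF pattern and 2.52% the cAMP response element pattern. The patterns were chosen from background knowledge, the matches are a description of letters, and no binding was measured.

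The cultures held neurons and other cells. All 10 neuronal markers were detected, with a summed level of 7119 to 9721 CPM (read counts scaled to the size of the library), against 953 to 2215 CPM for 8 astrocyte markers, 99.5 to 448 CPM for 5 fibroblast and meningeal markers and 6.18 to 13.001 CPM for 8 microglial markers, of which 3 reached a mean of 1 CPM. In such bulk RNA, fewer cells of a type and less RNA per cell cannot be told apart. Each library held 11316580 to 81129276 reads on genes, and the lowest raw count of any member in any library was 63 (Atf3 in a control). For Ddit3, a second annotated gene model on the same strand had 0 reads, and 93.9% of the Ddit3 exon bases could be counted.

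Deviations from the condition mean were shared within a preparation, at an average correlation of 0.45 across 13592 expressed genes (mean of at least 1 CPM). A pair of preparation 6 libraries stood apart. The SP TTX library of preparation 6 had a mean correlation of 0.080 with the other libraries of its preparation, and the LP TBOA library of preparation 6 one of −0.16. The highest mean correlation of the SP TTX library was with preparation 7 (0.28), and that of the LP TBOA library with preparation 3 (0.14). Both were kept as labelled, and whether a label is wrong was not tested. In every other library, the preparation with the highest mean correlation was the labelled one. Some results on SP TTX and LP TBOA are therefore also given without preparation 6 or without its SP TTX library.

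At the level of single conditions, Atf3 moved most and Asns least. The mean Atf3 level ran from 10.3 CPM in the control to 253 CPM after 2 h Bic, a 24.6-fold range. The ranges of Ppp1r15a (3.35-fold), Cebpb (2.498-fold) and Ddit4 (1.59-fold) also ran from the control to 2 h Bic. Sesn2 spanned a 1.70-fold range from SP TTX to LP TTX, and Atf4 a 1.40-fold range from SP TTX to 2 h Bic. Ddit3 (1.64-fold), Chac1 (1.37-fold), Atf5 (1.35-fold) and Asns (1.18-fold) completed the list. On a scale per length (CPM per kilobase of countable exon), the control level was highest for Atf4 (175), Asns (98.5) and Ddit4 (68.8), and lowest for Ppp1r15a (13.7), Cebpb (9.42) and Atf3 (4.78). After 2 h Bic, Atf3 reached 117 on this scale, between Atf4 (232) and Ddit4 (109.5).

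A test across all 9 conditions (edgeR quasi-likelihood F test, Benjamini-Hochberg adjusted over all genes tested) called 6 of the 10 genes, where 26% of the 37048 genes tested were called. These were Atf3, Ppp1r15a, Cebpb, Ddit4, Sesn2 and Atf4. The adjusted p-values of the other 4 were 0.484 for Atf5, 0.829 for Asns, 0.382 for Chac1 and 0.718 for Ddit3. Without preparation 8 the test called 9.

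**Figure D1:**
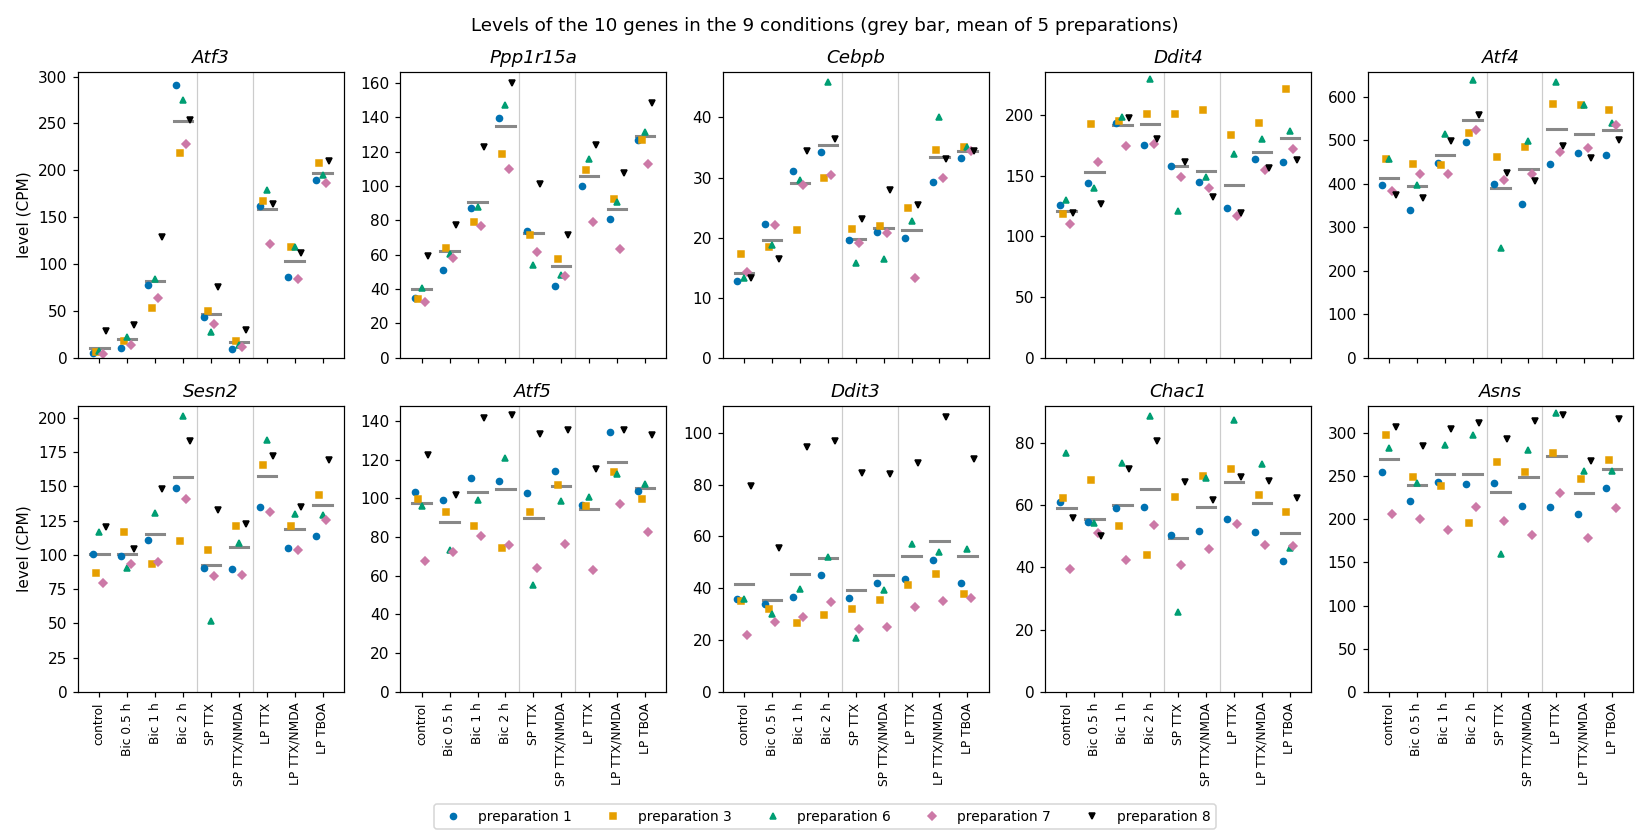
Level in CPM (y axis, from 0) of each of the 10 genes in the 9 conditions (x axis), with 1 symbol per culture preparation and a grey bar at the mean of 5. Atf3 climbs from a mean of 10.3 CPM in the control to 253 CPM after 2 h Bic, while preparation 8 (black triangles) holds the highest Ddit3 level in each condition.

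Which of the genes responded to AP firing was read from the Bic series against the control. Without pairing of the preparations, Ppp1r15a and Cebpb were first called higher after 0.5 h, Atf3 and Ddit4 after 1 h, and Sesn2 and Atf4 after 2 h. With the preparation as a block (edgeR over genes that pass filterByExpr, hereafter the paired fit), Atf3 was called after 0.5 h (adjusted p = 0.0185) and Cebpb was not (adjusted p = 0.104), so these calls set no order between Atf3 and Cebpb. Members called higher numbered 2 of 10 after 0.5 h, 4 after 1 h and 6 after 2 h, against 0.289%, 0.965% and 4.24% of all genes tested and 0.574%, 1.97% and 8.18% of the 13592 expressed genes, among which all 10 members are. No member was called lower at any time.

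Atf3 (ENSMUSG00000026628, chr1:191170296-191218039, minus strand, on GRCm38 as are the positions that follow), an ATF/CREB family member that mostly represses transcription as a homodimer, had 5.48, 5.80, 7.34, 4.22 and 28.6 CPM in the controls of preparations 1, 3, 6, 7 and 8, in this order in what follows. After 1 h Bic it had 77.5, 53.3, 83.8, 63.9 and 129 CPM, and after 2 h 291, 219, 275, 228 and 253 CPM. The lowest library at 1 h lay above the highest control, and preparation 8 was high in the control and at 1 h but not at 2 h. The log2 fold change was 3.01 ± 0.28 (SE; adjusted p = 1.14e-10, edgeR quasi-likelihood test, n = 5 against 5 libraries) after 1 h and 4.64 ± 0.29 (adjusted p = 6.20e-15) after 2 h. After 0.5 h, with 10.4, 18.2, 21.9, 13.9 and 35.2 CPM, the level was above the control in 5 of 5 preparations, and the log2 fold change of 0.98 ± 0.26 was not called (adjusted p = 0.140). In the paired fit it was called (1.22, adjusted p = 0.0185). Without preparation 8, whose control of 28.6 CPM was far above the others, it was 1.51, adjusted p = 2.20e-25, and it was also called when any 1 of the other preparations was left out (adjusted p up to 8.75e-06). These p-values are not comparable with that of the full fit, because with 4 against 4 libraries edgeR took the spread of a gene almost wholly from the trend over genes (prior degrees of freedom of 191, 1404 and, without preparation 6, 7 or 8, infinite, against 44.9 with all libraries).

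Ppp1r15a (ENSMUSG00000040435, chr7:45522916-45526268, minus strand), the phosphatase subunit, had 34.6, 34.4, 40.9, 32.5 and 59.3 CPM in the controls, 51.02, 64.2, 60.5, 58.3 and 77.1 CPM after 0.5 h and 139, 118, 147, 110.2 and 160.2 CPM after 2 h Bic. The 2 h libraries lay above the controls without overlap, and preparation 8 was the highest of the 5 at each of these times. Log2 fold changes were 0.63 ± 0.11 after 0.5 h, 1.16 ± 0.12 after 1 h and 1.73 ± 0.12 after 2 h (adjusted p = 2.92e-04, 2.34e-09 and 1.13e-13). Over the genes that pass filterByExpr, the 0.5 h call was lost (adjusted p = 0.159), while the paired fit kept it (adjusted p = 0.00185).

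Cebpb (ENSMUSG00000056501, chr2:167688915-167690418, plus strand), a transcription factor that pairs with ATF4 and CHOP, had 12.8, 17.2, 13.3, 14.2 and 13.3 CPM in the controls and 34.3, 29.98, 45.9, 30.5 and 36.4 CPM after 2 h Bic, with every 2 h library above every control. It rose by a log2 fold change of 0.46 ± 0.11 after 0.5 h, 1.02 ± 0.11 after 1 h and 1.31 ± 0.11 after 2 h (adjusted p = 0.0249, 3.66e-09 and 7.84e-12). The 0.5 h call was lost in the paired fit (adjusted p = 0.104) and without preparation 1, 6 or 7 (adjusted p up to 0.249), where the prior degrees of freedom were 191 or infinite.

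Ddit4 (ENSMUSG00000020108, chr10:59949669-59951834, minus strand), the mTORC1 inhibitor REDD1, had 126, 119, 129.8, 110.4 and 119 CPM in the controls, 193, 195, 198, 174 and 198 CPM after 1 h and 175, 201, 229, 176 and 179.7 CPM after 2 h Bic. The values at 1 and 2 h were alike, with log2 fold changes of 0.66 ± 0.078 at 1 h and 0.66 ± 0.081 at 2 h (adjusted p = 5.57e-08 and 1.57e-07), and neither group overlapped the controls. After 0.5 h it was above the control in 5 of 5 preparations without a call (0.34 ± 0.089, adjusted p = 0.130), and it was called without preparation 6 or 8 (adjusted p = 0.0290 and 0.0224, both with infinite prior degrees of freedom).

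Sesn2 (ENSMUSG00000028893, chr4:132492032-132510501, minus strand), a leucine sensor that restrains mTORC1, had 101, 86.8, 117, 79.4 and 121 CPM in the controls and 149, 110.4, 201, 141 and 183 CPM after 2 h Bic, and rose in 5 of 5 preparations although the groups overlapped (0.63 ± 0.12, adjusted p = 1.99e-04). Atf4 (ENSMUSG00000042406, chr15:80255184-80257541, plus strand), the effector of the response, had 396, 457, 457, 382 and 373 CPM in the controls and 496, 517, 638, 524 and 558 CPM after 2 h, with every 2 h library above every control (0.39 ± 0.084, adjusted p = 0.00108). Neither was called after 1 h, at 0.19 ± 0.11 for Sesn2 and 0.16 ± 0.084 for Atf4 (adjusted p = 0.658 for both).

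Atf5 (ENSMUSG00000038539, chr7:44812256-44816658, minus strand), Ddit3 (ENSMUSG00000025408, chr10:127290774-127296288, plus strand), Chac1 (ENSMUSG00000027313, chr2:119351229-119354381, plus strand) and Asns (ENSMUSG00000029752, chr6:7675169-7693254, minus strand) were not called at any time of Bic. After 2 h, the log2 differences from the control were 0.095 ± 0.13 for Atf5, 0.31 ± 0.23 for Ddit3, 0.14 ± 0.14 for Chac1 and −0.11 ± 0.11 for Asns, with adjusted p-values from 0.513 to 0.731. Ddit3, which encodes the stress factor CHOP, was higher than the control in 4 of 5 preparations, with 35.8, 34.98, 35.8, 22.1 and 79.4 CPM in the controls and 45.3, 29.6, 51.9, 34.6 and 96.8 CPM after 2 h Bic. In the paired fit, Ddit3 was called after 2 h (0.32, adjusted p = 0.0366), whereas Atf5, Chac1 and Asns were not. Over all 45 libraries, Asns lay between 159.8 and 323 CPM (median 249), Atf5 between 55.1 and 143 CPM (median 99.7) and Chac1 between 25.8 and 88.7 CPM (median 57.9).

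Between 0.5 and 1 h Bic, 4 of the 10 genes were called higher (0.634% of all genes tested, 1.39% of the expressed genes). Atf3 rose by 2.03 ± 0.15, Cebpb by 0.56 ± 0.098, Ppp1r15a by 0.54 ± 0.091 and Ddit4 by 0.32 ± 0.078 on the log2 scale (adjusted p = 1.30e-17, 5.99e-05, 2.91e-05 and 0.0158). The Ddit4 call was lost without preparation 1, 6 or 8 (adjusted p up to 0.120) and with DESeq2 (adjusted p = 0.0871). Ddit3 differed by 0.34 ± 0.16 (adjusted p = 0.833) and was called without preparation 1, 3, 6 or 7 (adjusted p up to 0.0467), as were Atf5 and Sesn2 without preparation 3 (adjusted p = 0.0420 and 0.0337). The prior degrees of freedom of this step were 60.9 with all libraries, 1000.05 without preparation 1 and infinite without any of the others. Between 1 and 2 h, Atf3 (1.63 ± 0.13), Ppp1r15a (0.57 ± 0.097) and Sesn2 (0.44 ± 0.11) rose further (adjusted p = 1.24e-11, 8.71e-05 and 0.0134; 2.53% of all genes tested and 5.29% of the expressed genes were higher). DESeq2 did not call Sesn2 (adjusted p = 0.158). Ddit4 differed by −0.0019 ± 0.070 and Cebpb by 0.29 ± 0.10 (adjusted p = 1.00 and 0.122). In this step the paired fit called 6 members higher, with Atf4 (0.23, adjusted p = 1.94e-04), Ddit3 (0.22, adjusted p = 0.00370) and Cebpb (0.30, adjusted p = 0.00490) added, where 11% of its genes were called higher, and the fit without preparation 8 called the same 6.

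**Figure D2:**
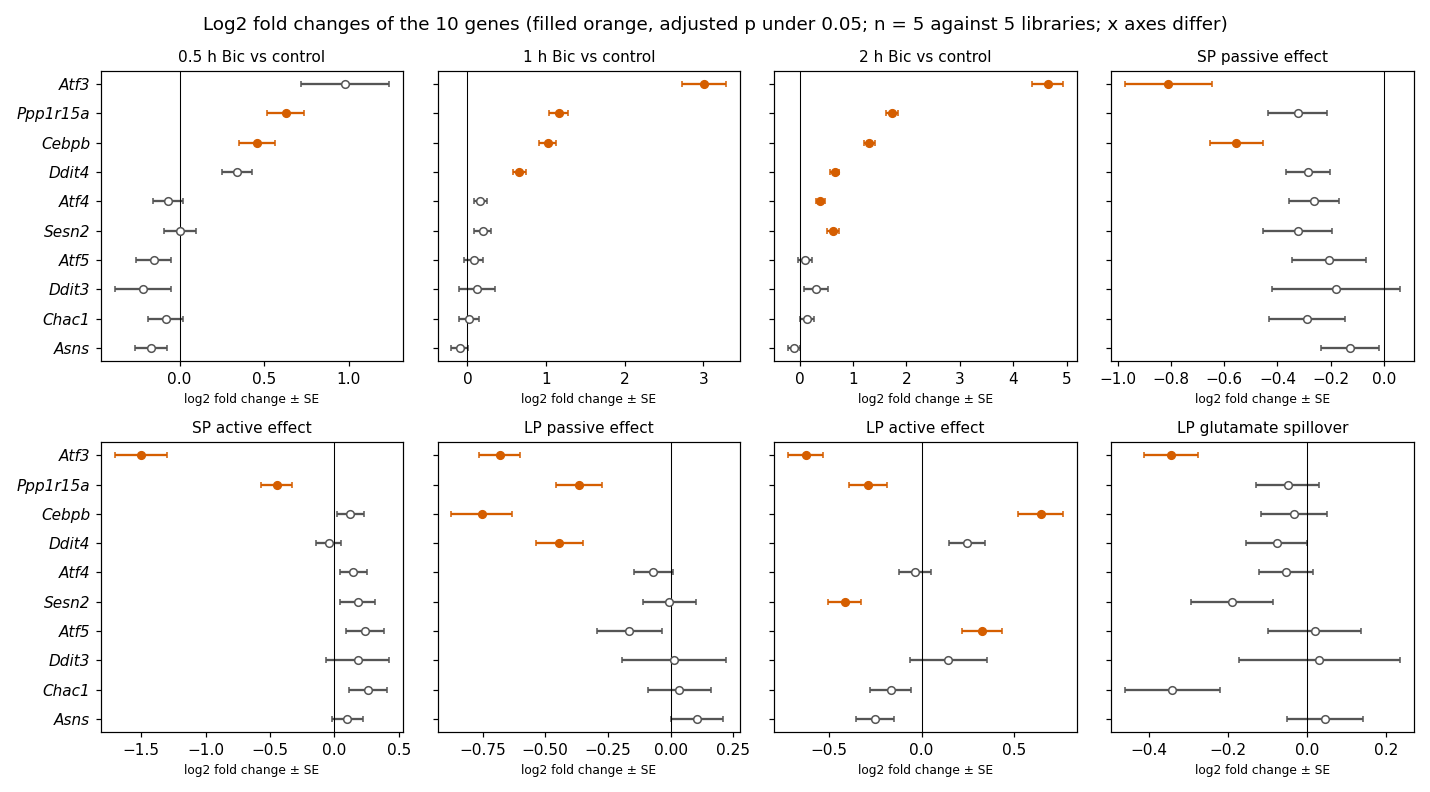
Log2 fold change with its SE (x axis, whose range differs between panels) of each gene (y axis) in 8 comparisons of 5 against 5 libraries, filled in orange where the adjusted p was under 0.05. Atf3 is called in each of the panels except 0.5 h Bic, and Cebpb lies at −0.75 for the LP passive effect and at 0.64 for the LP active effect.

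The SP asked what 0.5 h of firing block, alone or with NMDA, did to levels induced by Bic. Atf3 was lower at each step, and Ppp1r15a was lower with TTX/NMDA. Members called lower numbered 2 of 10 with TTX, 2 with TTX/NMDA against TTX and 4 with TTX/NMDA against 1 h Bic, beside 0.252%, 3.32% and 3.41% of all genes tested and 0.515%, 7.81% and 7.75% of the expressed genes, and none was called higher.

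With TTX in the SP, Atf3 had 43.96, 49.5, 27.3, 35.9 and 75.6 CPM, below 1 h Bic in 5 of 5 preparations (−0.81 ± 0.16, adjusted p = 0.00876). With TTX/NMDA it had 9.35, 17.5, 13.97, 11.7 and 29.3 CPM, again lower in 5 of 5 (−1.50 ± 0.20 against TTX, adjusted p = 4.59e-06; −2.30 ± 0.19 against 1 h Bic, adjusted p = 3.63e-11). The TTX/NMDA libraries lay below all 1 h Bic libraries. The passive call on Atf3 was not made by DESeq2 (adjusted p = 0.983) or over genes that pass filterByExpr (adjusted p = 0.617), and was made by the paired fit (adjusted p = 0.0182).

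Ppp1r15a had 74.02, 71.6, 54.02, 61.8 and 101 CPM with TTX and 41.9, 57.6, 48.2, 47.4 and 71.8 CPM with TTX/NMDA. The active effect was −0.45 ± 0.12 (adjusted p = 0.0239), lost without preparation 1 (adjusted p = 0.116) and with DESeq2 (adjusted p = 0.182). The total effect of −0.76 ± 0.11 (adjusted p = 8.86e-06) separated the groups without overlap. Cebpb fell with TTX, from a mean of 29.04 ± 4.90 CPM to 19.8 ± 2.75 CPM (SD, n = 5 libraries; −0.56 ± 0.10, adjusted p = 0.00175), and stood at 21.6 ± 4.09 CPM with TTX/NMDA (total effect −0.42 ± 0.11, adjusted p = 0.0176). Ddit4 had a total effect of −0.32 ± 0.081 (adjusted p = 0.0131). Without preparation 1 the total effects on Cebpb and Ddit4 were not called (adjusted p = 0.1003 and 0.0762), nor was that on Cebpb without preparation 6 (adjusted p = 0.0695).

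The SP TTX library of preparation 6 was the lowest of its 5 libraries for all 10 members, where 18.7% of the expressed genes were lowest in it. Sesn2 stood at 51.99 CPM in this library and at 84.2 CPM or more in the other 4, and Chac1 at 25.8 against 40.8 CPM or more. Atf4 stood at 253 CPM, Asns at 159.8 CPM and Atf5 at 55.1 CPM in it. Of 33 expressed ATF4-linked targets outside the 10 genes, 28 were lowest in it too, as were 11 of 20 cytosolic aminoacyl-tRNA synthetases, 4 of 22 genes of eIF2 control and 2 of 10 neuronal markers. Left out alone, it gave an Atf3 passive effect of −0.65 (adjusted p = 0.0114), a Cebpb passive effect of −0.47 (adjusted p = 0.00694) and a Ppp1r15a active effect of −0.54 (adjusted p = 9.81e-04), with 2 members called for the passive and 2 for the active effect. Without the whole of preparation 6 both counts were 2. Without preparation 8 the passive effect had 5 members called lower, and the active effect 2 lower (Atf3 and Ppp1r15a) and 4 higher. These 4 were Atf5 at 0.32, Ddit3 at 0.32, Chac1 at 0.39 and Sesn2 at 0.29 (adjusted p = 0.00178, 0.00628, 1.01e-04 and 0.00776). The prior degrees of freedom were infinite in both fits. With only the SP TTX library of preparation 6 left out, the active effects on the same 4 were 0.098, 0.0083, 0.090 and 0.027 (adjusted p = 0.683 to 0.984). Without preparation 3 the passive effect had 7 called lower, with Sesn2 at −0.43, adjusted p = 0.00122, and Chac1 at −0.42, adjusted p = 0.00469. The prior degrees of freedom were 331 there, against 31.96 with all libraries. With only the SP TTX library of preparation 6 left out, Sesn2 was at −0.16 (adjusted p = 0.811) and Chac1 at −0.11 (adjusted p = 0.828). The shares of all genes called in the fits without a preparation are not given here.

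The LP asked the same after 1 h of block. With TTX, Atf3, Cebpb, Ddit4 and Ppp1r15a were below their 2 h Bic levels, and with NMDA added to TTX, Atf3, Ppp1r15a and Sesn2 were below, and Cebpb and Atf5 above, their levels with TTX. For the passive effect, 4 of 10 members were called lower (1.62% of all genes tested, 3.60% of the expressed genes). For the active effect, 2 were called higher and 3 lower, 5 of 10 in all, where 23.3% of all genes tested were called either way, and 46.9% of the 13592 expressed genes, a share near that of the members. The median log2 fold change of the active effect was −0.10 over the members, 0.11 over all genes tested and −0.011 over the expressed genes.

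Atf3 had 162, 167, 179, 122 and 164 CPM with TTX, 86.6, 118, 118, 84.2 and 112 CPM with TTX/NMDA and 189, 207, 195, 187 and 209.7 CPM with TBOA. The TTX libraries lay below all 2 h Bic libraries and the TTX/NMDA libraries below all TTX libraries. The passive effect was −0.68 ± 0.082 (adjusted p = 9.31e-07), the active effect −0.63 ± 0.094 (adjusted p = 7.21e-06) and the total effect −1.30 ± 0.090 (adjusted p = 2.35e-13). In the fit of all 45 libraries the passive effect (−0.67, adjusted p = 0.184) and the active effect (−0.62, adjusted p = 0.0804) were not called. With TTX/NMDA, Atf3 was above its control level in 5 of 5 preparations (3.36 ± 0.27, adjusted p = 3.24e-12).

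Ppp1r15a had 99.97, 109, 116, 78.9 and 124 CPM with TTX and 80.7, 92.3, 90.5, 63.6 and 108 CPM with TTX/NMDA, with a passive effect of −0.36 ± 0.092 (adjusted p = 0.0147) and an active effect of −0.29 ± 0.10 (adjusted p = 0.0445), both lower in 5 of 5 preparations. Its active call was lost without preparation 1, 3 or 6 (adjusted p = 0.0627 to 0.0896) and its passive call without preparation 1 (adjusted p = 0.0762), while the paired fit called both (adjusted p = 1.78e-05 and 4.50e-05). DESeq2 did not make the active call (adjusted p = 0.0923). Neither call was made over genes that pass filterByExpr (adjusted p = 0.114 active, 0.0643 passive) or in 1 fit of all libraries (adjusted p = 0.172 active, 0.210 passive).

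With TTX, Sesn2 was at 135, 165, 184, 131 and 172 CPM (−0.0050 ± 0.10, adjusted p = 0.982), and had 105, 121, 129.6, 104 and 135 CPM with TTX/NMDA. The active effect was −0.42 ± 0.088 (adjusted p = 5.86e-04), lower in 5 of 5 preparations, and the total effect −0.42 ± 0.10 (adjusted p = 0.00254). Ddit4 went from 192 ± 23.2 CPM after 2 h Bic to 142 ± 31.1 CPM with TTX (SD, n = 5 libraries; −0.44 ± 0.095, adjusted p = 0.00315), and stood at 169 ± 16.7 CPM with TTX/NMDA.

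Cebpb moved in opposite directions at the 2 steps. It had 34.3, 29.98, 45.9, 30.5 and 36.4 CPM after 2 h Bic, 20.003, 24.9, 22.8, 13.2 and 25.4 CPM with TTX and 29.3, 34.6, 40.2, 29.8 and 33.02 CPM with TTX/NMDA, and the TTX libraries overlapped neither of the other groups. The passive effect was −0.75 ± 0.12 (adjusted p = 8.63e-05) and the active effect 0.64 ± 0.12 (adjusted p = 1.44e-04), which left a total effect of −0.11 ± 0.098 (adjusted p = 0.446). Atf5, a translation-controlled relative of ATF4, had 96.3, 96.03, 101, 63.2 and 115 CPM with TTX and 134, 114, 113, 96.99 and 135 CPM with TTX/NMDA, higher in 5 of 5 preparations although the groups overlapped (0.33 ± 0.11, adjusted p = 0.0228). The Atf5 call was lost without preparation 1 (adjusted p = 0.0876) and with DESeq2 (adjusted p = 0.0550).

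Markers of cell types moved at the step from TTX to TTX/NMDA in the LP. The summed level of the neuronal markers went from a median of 9162 (8734 to 9721) to 7441 CPM (7119 to 7793) and that of 6 endothelial and mural markers, 4 of which reached a mean of 1 CPM, from 19.2 (18.6 to 22.2) to 29.2 CPM (26.4 to 31.4), both without overlap. Fibroblast and meningeal markers went from 219 (114 to 286) to 427 CPM (159 to 448), astrocyte markers from 1248 (1049 to 1605) to 1567 CPM (1221 to 2215), 9 markers of the oligodendrocyte lineage from 157 (101 to 169.9) to 251 CPM (159 to 316) and microglial markers from 8.33 (7.23 to 9.998) to 11.4 CPM (9.12 to 13.001). The neuronal and endothelial sums with TTX/NMDA also lay outside those after 2 h Bic (8498 to 9588 and 16.7 to 25.03 CPM). Against the control, the endothelial sum (17.4 to 20.02 CPM there) and the microglial sum (6.35 to 9.02 CPM there) did not overlap. The neuronal sum did (7206 to 9141 CPM in the control). The part of these markers in the higher Cebpb and Atf5, in the lower Atf3, Sesn2 and Ppp1r15a, and in the LP TTX/NMDA differences from 2 h Bic and from the control was not tested.

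The paired fit called 9 of the 10 genes for the LP active effect, where 62.1% of its genes were called. It added Ddit4 (0.29, adjusted p = 2.16e-04) and Ddit3 (0.15, adjusted p = 0.0134) among the higher and Asns (−0.22, adjusted p = 6.20e-04) and Chac1 (−0.13, adjusted p = 0.0165) among the lower genes. Atf4, with 445, 582, 634, 473 and 488 CPM with TTX and 470.4, 581, 581, 483 and 459.9 CPM with TTX/NMDA, was called by neither fit (−0.035 ± 0.087, adjusted p = 0.809, and 0.958 in the paired fit). The unpaired fit also called Asns without preparation 1 or 8 (adjusted p = 0.0391 and 0.0187) and Ddit4 without preparation 3 or 8 (adjusted p = 0.0140 and 0.0368).

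For the LP total effect, Atf3, Ppp1r15a and Sesn2 were called lower, 3 of 10 against 11.1% of all genes tested and 25.1% of the expressed genes, a share near that of the members. Ppp1r15a changed by −0.65 ± 0.098 (adjusted p = 3.37e-06), with TTX/NMDA libraries below all 2 h Bic libraries. In the paired fit 6 were called, with Ddit4 lower (−0.17, adjusted p = 0.0109) and Atf5 (0.23, adjusted p = 0.0341) and Ddit3 (0.21, adjusted p = 0.0236) higher, where 56.6% of its genes were called. Leaving out preparation 8 gave 5.

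With TBOA, 1 of the 10 genes was called lower than after 2 h Bic, against 0.549% of all genes tested and 1.27% of the expressed genes. This was Atf3 (−0.35 ± 0.069, adjusted p = 0.00551), whose 5 TBOA libraries lay below the 5 Bic libraries. The call was lost without preparation 1 (−0.27, adjusted p = 0.0884) and over genes that pass filterByExpr (adjusted p = 0.0580), and was kept in the paired fit (adjusted p = 0.0197) and without preparation 6 (−0.31, adjusted p = 0.0300). Cebpb, with 33.2, 35.1, 35.2, 34.3 and 34.4 CPM, had the narrowest spread of its conditions and a difference of −0.034 ± 0.084 (adjusted p = 0.933). Chac1 had 42.05, 57.9, 46.3, 47.01 and 62.2 CPM with TBOA against 59.3, 44.1, 88.7, 53.6 and 80.6 CPM after 2 h Bic (−0.34 ± 0.12, adjusted p = 0.349). Without preparation 3 or 8 the Chac1 difference was called (−0.51, adjusted p = 0.00225, and −0.34, adjusted p = 4.47e-04, the latter with infinite prior degrees of freedom). The Chac1 difference was −0.18 (adjusted p = 0.802) without preparation 6, whose TBOA library stood apart.

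Against the untreated control, TTX/NMDA left 1 of the 10 genes called higher in the SP and 5 in the LP, where 0.703% and 10.9% of all genes tested and 1.40% and 17.3% of the expressed genes were higher. In the SP this was Cebpb (0.60 ± 0.11, adjusted p = 0.00150). Atf3 was 0.70 ± 0.30 above the control (adjusted p = 0.368), higher in 5 of 5 preparations but by little in preparation 8, which had 29.3 CPM against 28.6 CPM in its control. The paired fit called 4 members in the SP (5.52% of its genes), with Atf3 (0.89, adjusted p = 0.0163), Ppp1r15a (0.40, adjusted p = 0.00963) and Ddit4 (0.32, adjusted p = 0.0339), and the fit without preparation 8 also gave 4. In the LP, Atf3, Cebpb (1.22 ± 0.10), Ppp1r15a (1.10 ± 0.12), Ddit4 (0.48 ± 0.085) and Atf4 (0.31 ± 0.092) were higher (adjusted p for the last 4 = 9.97e-12, 1.14e-08, 4.03e-05 and 0.0119), each without overlap of the groups. With the preparation as a block 9 were called, adding Ddit3 (0.52), Atf5 (0.30) and Sesn2 (0.26) higher and Asns (−0.22) lower (adjusted p = 1.39e-04, 0.00445, 0.0129 and 0.00764), where 47.2% of its genes were called. Without preparation 3 or 8 the unpaired count was 7, with Ddit3 and Atf5 added, and Ddit3 was also called without preparation 6 or 7.

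Whether the effects differed between the protocols was tested as an interaction. None of the 10 genes was called for the passive effect by edgeR, DESeq2 or the paired fit, with 0 at an unadjusted p under 0.05, where 0.256% of all genes tested were called. For the active effect edgeR called none, where it called 2.57% of all genes tested, with 3 members at an unadjusted p under 0.05. DESeq2 called 0 and the paired fit 3, where 25% of its genes were called. The active effect on Atf3 was 0.89 ± 0.28 higher in the LP on the log2 scale (adjusted p = 0.0824, and 0.0158 in the paired fit; higher in 5 of 5 preparations), that on Cebpb 0.53 ± 0.18 higher (adjusted p = 0.129, and 0.0387 in the paired fit; 5 of 5) and that on Sesn2 −0.58 ± 0.20 (adjusted p = 0.119, and 0.0260 in the paired fit; lower in 5 of 5). Without preparation 8 the unpaired test called 4, these 3 and Chac1, and without preparation 6, which holds the library that stood apart, it called 1 (Atf3), as it did with the SP TTX library of preparation 6 alone left out (1.04, adjusted p = 0.0207).

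None of the 80 pairs of neighbouring conditions in the order of mean levels was called after adjustment, and 8 had an unadjusted p under 0.05 (exact two-sided permutation test). With 5 against 5 libraries, 13 pairs at the smallest possible p would be needed for any to pass, so this test could hardly make a call. In the order of Atf3, from the control through SP TTX/NMDA, 0.5 h Bic, SP TTX, 1 h Bic, LP TTX/NMDA, LP TTX and LP TBOA to 2 h Bic, the top 3 steps had no overlap of libraries, and each reached the smallest p that an exact two-sided permutation test of 5 against 5 allows (p = 0.00794, adjusted p = 0.212 over all 80 pairs). For Ppp1r15a, Cebpb and Atf3, the smallest exact p of a step was 0.0238, 0.0159 and 0.00794, and for the other 7 genes no step was under 0.167.

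For some of the 10 genes the level differed more between preparations than between conditions. Over the 45 libraries, the preparation took 77.1% of the sum of squares of Ddit3 on the log2(CPM + 0.5) scale, 60.6% of Atf5 and 59.4% of Asns, against 13.7%, 17.5% and 10.8% for the condition. For Atf3 (92.4%), Ppp1r15a (84.1%) and Cebpb (81.03%) the condition took most. Ddit4, Atf4 and Sesn2 had 56.4%, 54.4% and 53.5% for the condition. Over the 13592 expressed genes the median shares were 44.1% for the condition and 19.6% for the preparation. Chac1 had 54.002% in neither, and its SP TTX library of preparation 6 lay −0.85 from its condition mean on the log2 scale.

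**Figure D3:**
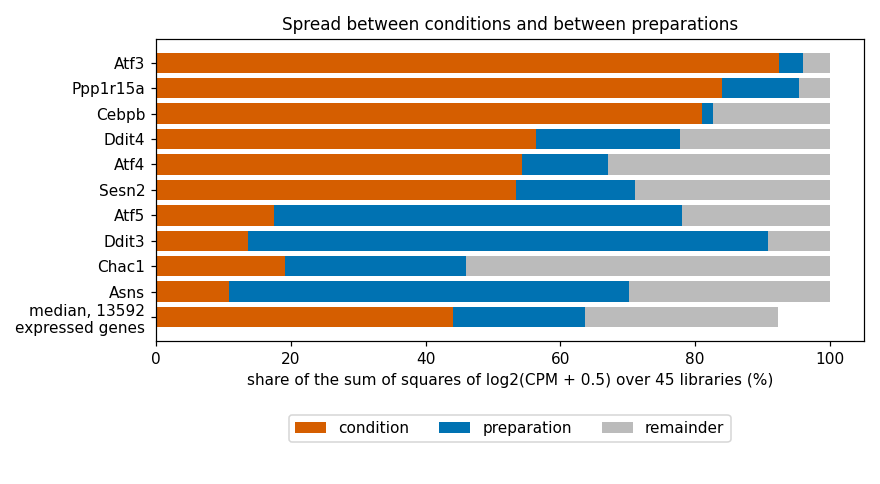
Share in percent (x axis) of the sum of squares of log2(CPM + 0.5) over 45 libraries that lay between conditions, between preparations and in neither, for each gene and as the median of each share over 13592 expressed genes, whose 3 medians need not add up to all. The preparation takes 77.1% for Ddit3 and 3.55% for Atf3.

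Preparation 8 was above the condition mean in 9 of 9 conditions for Ddit3, Atf5, Asns, Sesn2, Ppp1r15a and Atf3, by a mean of 0.99, 0.38, 0.29, 0.27, 0.37 and 0.60 on the log2 scale. Preparation 7 was below it in 9 of 9 conditions for these 6 genes and Chac1, with mean deviations of −0.54 for Ddit3 and −0.30 for Asns. Ddit4 and Atf4 did not share this order, with preparation 3 highest for both (0.23 and 0.12). For 8 of the 10 genes preparation 8 was the highest and preparation 7 the lowest on average, against 9.62% of the expressed genes, and for 16 of 33 ATF4-linked targets and 9 of 20 aminoacyl-tRNA synthetases. For the other lists, 2 of 22 genes of eIF2 control, 3 of 20 of the ATF6 and XBP1 arm, 2 of 15 relatives of ATF and C/EBP and 0 of 17 of mTORC1 control had this order. The summed fibroblast and meningeal markers had a median of 114 CPM in preparation 8 and 223 CPM in preparation 7, and the astrocyte markers 1099.9 and 1503 CPM, and their part in the order of the preparations was not tested.

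**Figure D4:**
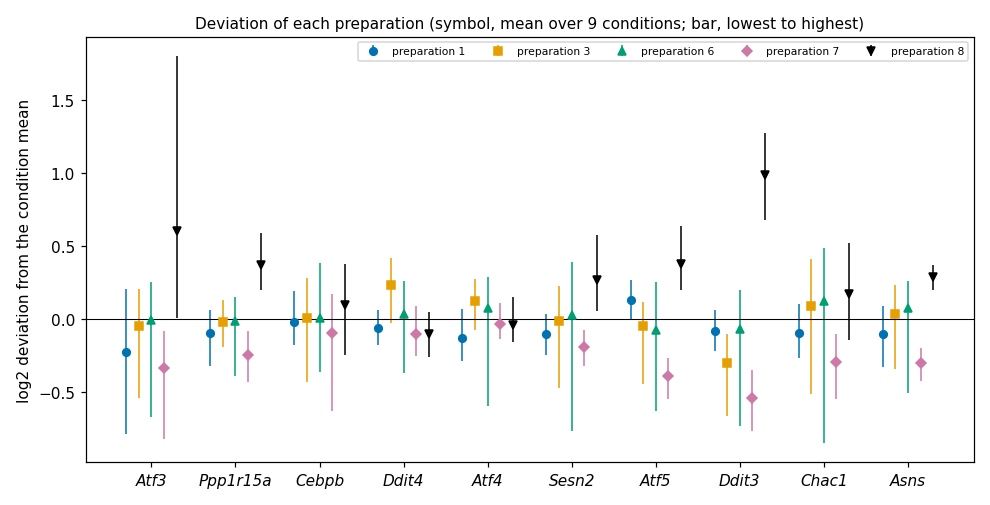
Log2 deviation from the condition mean (y axis) of each of the 5 preparations for each gene (x axis), as the mean over 9 conditions (symbol) and the range from the lowest to the highest condition (bar). Preparation 8 is at 0.99 for Ddit3 and −0.10 for Ddit4.

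Among the expressed genes, those whose log2 levels over the 45 libraries were most like a member are given here by Pearson's r without a test, since libraries share conditions and preparations. For Atf3 they were Nr4a2 (0.97), Ppp1r15a (0.96) and Nfil3 (0.96), and for Ppp1r15a Atf3 (0.96), Rem2 (0.93) and Pim3 (0.93). Nr4a2 is an activity-induced nuclear receptor and Nfil3 a basic leucine zipper repressor. For Cebpb they were Klf5 (0.89), Btg1 (0.88) and Nfkbid (0.86), and for Ddit4 Klf4 (0.79), Irf2bp2 (0.76) and Plekhh3 (0.76). Atf4 was most like Vegfa (0.82), Sp8 (0.81) and Sesn2 (0.79), and Sesn2 most like Slc7a5 (0.91), Eprs (0.90) and Herpud1 (0.86). For Asns they were Nars (0.96), Phf10 (0.93) and Psat1 (0.93), for Chac1 Aldh18a1 (0.93), Shmt2 (0.91) and Cars (0.90), for Atf5 Serpinf1 (0.93), Phgdh (0.92) and Slc7a3 (0.90) and for Ddit3 Sars (0.93), Slc3a2 (0.91) and Pycr1 (0.90). Between members, r was 0.96 for Atf3 and Ppp1r15a, 0.86 for Atf5 and Ddit3, 0.80 for Chac1 and Asns and 0.79 for Atf4 and Sesn2, and 0.18 for Atf3 and Asns.

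The other genes of the pathway were followed in 6 lists. After 2 h Bic, where 9.02% of all genes tested and 18.6% of the expressed genes were called either way, genes of eIF2 control had 3 higher and 2 lower of 22, with Ppp1r15b, the constitutive paralogue of Ppp1r15a, at 0.91 ± 0.075, adjusted p = 1.33e-11, and Eif2ak3, the kinase PERK of the endoplasmic reticulum, at 0.75 ± 0.087, adjusted p = 5.14e-08. The ATF4-linked targets had 2 higher and 1 lower of 34. Stc2, a secreted glycoprotein, was at 0.72 ± 0.11, adjusted p = 1.62e-05, and Slc38a2, an amino acid transporter, at 0.42 ± 0.087, adjusted p = 6.55e-04, while Trib3, an inhibitor of ATF4 and AKT, was at −0.78 ± 0.21, adjusted p = 0.0140. Of 20 cytosolic aminoacyl-tRNA synthetases edgeR called none (3 at an unadjusted p under 0.05), DESeq2 1 and the paired fit 3. Of 20 genes of the ATF6 and XBP1 arm, 2 were higher (Dnajb9, 0.46 ± 0.092, adjusted p = 5.54e-04, and Hspa5, 0.41 ± 0.12, adjusted p = 0.0224, both chaperones of the endoplasmic reticulum) and 1 lower (Edem1). The relatives of ATF and C/EBP had 1 higher and 1 lower of 19 (Crebzf and Crebrf), and the mTORC1 list 2 higher and 0 lower of 18 (Rheb and Sesn3). The median log2 fold changes of the 6 lists lay between −0.026 and 0.085, beside −0.0061 over all genes tested. The paired fit called over 1.5 times as many genes of 4 lists, with 4 higher and 2 lower ATF4-linked targets, 2 and 3 relatives and 3 and 3 mTORC1 genes, and 3 and 2 of the ATF6 and XBP1 arm, where 29.3% of its genes were called.

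For the LP active effect, genes of eIF2 control had 1 higher and 7 lower of 22, led by Eif2ak3 (−0.96 ± 0.088, adjusted p = 1.17e-09) and Ppp1r15b (−0.76 ± 0.072, adjusted p = 2.31e-09), while Eif2ak2, the kinase PKR that senses double-stranded RNA, was at 0.85 ± 0.16, adjusted p = 1.70e-04. The ATF4-linked targets had 5 higher and 9 lower of 34, with Gdf15, a stress-induced secreted factor, at 1.19 ± 0.18, adjusted p = 8.46e-06, and Stc2 at −0.99 ± 0.13, adjusted p = 4.82e-07. The aminoacyl-tRNA synthetases had 0 higher and 5 lower of 20, among them Eprs (−0.35 ± 0.074, adjusted p = 5.28e-04) and Aars (−0.33 ± 0.073, adjusted p = 0.00103). The ATF6 and XBP1 arm had 3 higher and 5 lower of 20, the relatives of ATF and C/EBP 4 higher and 4 lower of 19 (Cebpd, 1.09 ± 0.16, adjusted p = 6.13e-06, and Cebpa, −0.74 ± 0.12, adjusted p = 1.10e-05), and the mTORC1 list 3 higher and 7 lower of 18, with Ddit4l, the paralogue of Ddit4, at 0.79 ± 0.11, adjusted p = 3.22e-06 and Mtor at −0.36 ± 0.061, adjusted p = 3.85e-05. These counts stand beside 23.3% of all genes tested and 46.9% of the expressed genes. The median log2 fold changes of the 6 lists lay between −0.15 and 0.019. The paired fit moved the count of the synthetases by over 1.5 times, to 1 higher and 8 lower, where 62.1% of its genes were called.

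Against the control, LP TTX/NMDA left 2 genes of eIF2 control higher and 1 lower, 6 ATF4-linked targets higher and 3 lower, and 2 of the 20 synthetases lower with none higher, where 19.5% of all genes tested and 36.8% of the expressed genes were called either way. Slc7a11, the cystine transporter, was at 0.94 ± 0.13, adjusted p = 7.19e-07, Cbs, an enzyme of cysteine synthesis, at 0.86 ± 0.17, adjusted p = 1.48e-04, and Nupr1, a stress-induced chromatin protein, at 0.75 ± 0.16, adjusted p = 5.30e-04. Eif2ak2 was at 1.13 ± 0.16, adjusted p = 2.12e-06 and Ddit4l at 0.99 ± 0.12, adjusted p = 8.93e-08. The ATF6 and XBP1 arm had 2 higher and 4 lower, the relatives of ATF and C/EBP 1 higher and 2 lower, and the mTORC1 list 3 higher and 7 lower. The medians of the 6 lists lay between −0.18 and 0.11, beside 0.12 over all genes tested and −0.021 over the expressed genes. The paired fit called 5 synthetases lower, 3 higher and 2 lower genes of eIF2 control, 5 and 5 of the ATF6 and XBP1 arm and 2 and 3 relatives. In that fit 47.2% of the genes were called.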

How the data were processed

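RNA of 45 libraries was sequenced in the study with a directional poly-A library kit, single-end, on an Illumina sequencer. The authors demultiplexed reads with bcl2fastq 2.20.0.422, aligned them to GRCm38 with STAR 2.5.4b and counted them per gene of Ensembl release 94 on the reverse strand with featureCounts 1.6.5, leaving out reads with several positions or genes. The deposited values are these raw counts. Libraries held 11316580 to 81129276 counts (median 26239614), and 0 pairs of libraries were identical. Every column was matched to its sample by name, with 0 columns left over.

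Counts were fitted with edgeR 4.0.16 in R 4.3.3 (quasi-likelihood test, TMM scaling, unpaired, only the libraries of the groups compared, every gene with at least 1 read). The methods of the study name no pairing of preparations. Genes were called at a Benjamini-Hochberg adjusted p under 0.05 over all genes tested. Such a test ran for 14 comparisons, 2 interactions and all 9 conditions. Its trial on simulated data copied the LP active effect only, with no effect shared within a preparation. CPM were computed with TMM scaling, and neighbouring conditions were compared by an exact two-sided permutation test on log2(CPM + 0.5). Alternatives were DESeq2 1.42.0, its size factors in edgeR, filterByExpr, a fit with the preparation as a block (with filterByExpr, the paired fit, and over every gene), 1 fit of all libraries, other pseudocounts, and leaving out each preparation. A fit without the SP TTX library of preparation 6 was added after the data were seen. Preparation numbers are the numbers in the sample titles. They were read as culture preparations, because the study counts each preparation of primary neurons as a replicate. Same-numbered libraries deviated together (mean correlation 0.45), apart from the SP TTX and LP TBOA libraries of preparation 6.

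The 10 genes and the lists were chosen with earlier results of these data known. All 10 are named whatever their result, as are the 3 most alike genes of each by Pearson's r. From each list up to 3 called genes of each comparison described could be named, with the largest changes in the same direction in all 5 preparations and a mean of at least 1 CPM.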

Additional observations from a re-analysis of the deposited data

Results flagged for a closer look

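Of 90 groups of 5 libraries (10 genes in 9 conditions), 11 held a library far from the other 4 by Dixon's test, where chance flags about 1 in 20 groups. The groups share preparations, so the flags are not independent.

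Ddit3 accounted for 6 of the 11, each time with preparation 8 as the highest library. Its level there was 79.4 CPM in the control (others up to 35.8), 55.5 CPM after 0.5 h Bic (others up to 33.8) and 94.5 CPM after 1 h Bic (others up to 39.6). It was 84.5 CPM with SP TTX (others up to 36.2), 84.1 CPM with SP TTX/NMDA (others up to 41.98) and 106 CPM with LP TTX/NMDA (others up to 53.9). Preparation 8 was also the highest for Atf3 in the control, at 28.6 CPM against at most 7.34 CPM, and for Ppp1r15a after 1 h Bic, at 123 CPM against at most 87.6 CPM.

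Chac1 was high after 0.5 h Bic in preparation 3, at 68.1 CPM against at most 54.6 CPM. Ddit4 was low after 1 h Bic in preparation 7, at 173.9 CPM against at least 193 CPM, and high with SP TTX/NMDA in preparation 3, at 203.9 CPM against at most 148 CPM.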

How the results depend on the processing

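After 1 h and 2 h Bic the counts of members called (4 and 6) held within 1.5 times under each alternative run, and no called member changed sign in any alternative. Members called for 0.5 h Bic, 2 in the fit reported, numbered 0 with filterByExpr, 1 with all 45 libraries in 1 fit and 2 to 4 when a preparation was left out. From 0.5 to 1 h (4 reported) they numbered 2 with filterByExpr, 2 in 1 fit of all libraries and 3 to 7 without a preparation, and from 1 to 2 h (3 reported) 3 to 6 without a preparation. DESeq2, filterByExpr and the fit of all libraries called 1, 0 and 1 for the SP passive effect (2 reported) and 1, 1 and 1 for the SP active effect (2 reported), and leaving out a preparation gave 2 to 7 and 1 to 6 (the 6 being 4 higher and 2 lower). For the SP total effect (4 reported), filterByExpr gave 2 and leaving out a preparation 2 to 4. The fit of all libraries gave 2 for the LP passive effect (4 reported), 2 for the LP active effect (5 reported, 3 with DESeq2) and 0 for the spillover effect (1 reported, 0 with filterByExpr). Without a preparation, the spillover effect gave 0 to 2, the LP total effect (3 reported) 3 to 5, SP TTX/NMDA against the control (1 reported) 1 to 4 and the protocol difference of the active effect (0 reported) 0 to 4, and that difference gave 1 without the SP TTX library of preparation 6. The paired fit with the preparation as a block gave 6 from 1 to 2 h, 9 for the LP active effect, 6 for the LP total effect, 4 and 9 for SP and LP TTX/NMDA against the control and 3 for the protocol difference of the active effect. It changed 23 of 160 calls on single members. The block over every gene gave 4 for 0.5 h Bic, 7 and 6 for the later steps, 9 and 7 for the SP passive and active effects, 8, 6 and 3 for the LP active, total and spillover effects, 4 and 9 for SP and LP TTX/NMDA against the control, 4 and 6 for the protocol differences and 10 for any condition, and in all 17 of these fits edgeR replaced the spread of each gene by the trend (infinite prior degrees of freedom), as in 10 of the 85 fits without a preparation (1, 2, 2 and 5 without preparation 3, 6, 7 and 8), among them 0.5 h Bic, the step from 0.5 to 1 h and, without preparation 8, the SP passive, SP active and spillover effects. The causes of the other changes were not tested. No share over all genes stands beside the counts without a preparation. The order of conditions had 0 called pairs under each alternative run, which says nothing about its stability, since 4 against 4 libraries need 46 of 80 pairs at their smallest exact p (0.0286) for a call and an exact sign-flip test of 5 pairs cannot reach the threshold. The lowest count of a member was 63 reads, and the part of depth in the calls was not tested. Each condition rests on 5 preparations.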
